A study of Mus musculus with 4 samples.

Results

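The GIMAP family (GTPases of immunity-associated proteins) was examined in B220+ B cells of the spleen from mice with Nsd1 floxed for deletion in B cells (NSD1 B KO, here KO) and from their controls (NSD1 B WT, here WT). Its members were taken by gene symbol, as Gimap1 and Gimap3 to Gimap9, which are 8 of the 55401 genes listed in the deposited counts. All 8 were counted in all 4 libraries and were among the 11657 genes tested. Of these, 3 were higher in KO (Gimap9, Gimap1 and Gimap8, by 1.63-fold to 1.96-fold), 3 were lower (Gimap5, Gimap7 and Gimap6, by 23.7% to 31.3%), and Gimap3 and Gimap4 did not pass the test. The summed level of the family was nearly equal in the genotypes, at a ratio of 1.01.

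GIMAP proteins are GTP-binding proteins of vertebrates that are related in fold to the septins and are found mainly in lymphocytes. Several of them are anchored in internal membranes, where GTP binding lets them pair or form polymers. In mice they are known above all for keeping mature T and B lymphocytes alive, and loss of Gimap1 or Gimap5 leaves few peripheral lymphocytes.

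RNA was sequenced from 2 WT libraries (Mb1-Cre+ NSD1+/+) and from 2 KO libraries (Mb1-Cre+ NSD1 fl/fl). Mb1-Cre is expressed from the Cd79a locus and acts from early in the B cell lineage, and both genotypes carry it. The mice were C57BL/6J, 7 to 9 weeks old and of both sexes, with littermates as controls, and the B cells were sorted by flow cytometry. No source says whether the libraries of a genotype came from separate mice, so that p-values measure only the spread between these libraries. NSD1 is an enzyme that methylates histone H3 at lysine 36, and the comparison asks which transcripts differ after its deletion in B cells. The paper reports fewer follicular B cells and more B1 cells in the KO spleen. A different make-up of the sorted B220+ cells cannot be told apart here from a change within cells.

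Each library held 6769118 to 7566834 counts on genes. Libraries of a genotype were alike but differed by more than counting noise (chi-square per degree of freedom 2.95 in WT and 4.45 in KO over the tested genes). Nsd1 itself had 497 and 480 counts in WT and 284 and 280 in KO. The counts are per gene and not per exon, and reads outside the floxed part remain in them. The genotypes differed at most genes: 78.2% of the tested genes were called. A further property of these counts is that 2203 tested genes (18.9%) had 0 counts in both libraries of a genotype and were counted in the other. None of the GIMAP members was at 0 in any library.

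The members lie in 1 cluster of 123618 bp on chromosome 6 of mm10, from 48647234 to 48770851 (GENCODE M21). Their order is Gimap8, Gimap9, Gimap4, Gimap6, Gimap7, Gimap1, Gimap5 and Gimap3. Gimap6 and Gimap3 are on the minus strand and the other members are on the plus strand. Gimap8, which carries more than 1 GTP-binding domain, has a coding sequence of 2067 nt, and the others have 876 to 987 nt. Gimap3 and Gimap5 are close copies, with 90.6% of aligned coding bases identical. The next most alike pair, Gimap7 and Gimap9, shared 68.9%, in a ranking that leaves out Gimap8, which was not aligned. Of the distinct 50-base words of the Gimap3 transcripts, 8.15% occur in another gene, and for Gimap5 the share with a gene that does not overlap it was 4.53%, and a read that lies wholly in such words cannot be placed in 1 gene only. For the other 6 members, the share with a gene that does not overlap them was at most 1.57%.

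The promoters of the 2 members with the largest increase and the 2 with the largest decrease are shown because neighbouring genes of the cluster moved in opposite directions. Each runs from 250 bases before the start of the gene to 50 bases after it, in the direction of the gene (RefSeq, GRCm38.p6). Capitals mark AGGAAG on either strand, a form of many sites of ETS factors, whose shorter core, GGAA, was not marked on its own.
Gimap9 promoter, chr6:48675885-48676184, plus strand: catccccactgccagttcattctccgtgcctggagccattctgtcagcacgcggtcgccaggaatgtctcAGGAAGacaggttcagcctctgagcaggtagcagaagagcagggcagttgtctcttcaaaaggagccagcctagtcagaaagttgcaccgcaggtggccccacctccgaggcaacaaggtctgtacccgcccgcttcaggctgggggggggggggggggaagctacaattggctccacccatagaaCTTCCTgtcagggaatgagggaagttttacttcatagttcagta
Gimap1 promoter, chr6:48738797-48739096, plus strand: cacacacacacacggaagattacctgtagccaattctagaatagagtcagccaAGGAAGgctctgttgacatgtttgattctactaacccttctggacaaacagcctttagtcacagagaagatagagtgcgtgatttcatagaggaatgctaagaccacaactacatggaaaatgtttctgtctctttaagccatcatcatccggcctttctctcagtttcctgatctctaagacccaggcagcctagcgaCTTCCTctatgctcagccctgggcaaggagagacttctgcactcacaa
Gimap5 promoter, chr6:48745947-48746246, plus strand: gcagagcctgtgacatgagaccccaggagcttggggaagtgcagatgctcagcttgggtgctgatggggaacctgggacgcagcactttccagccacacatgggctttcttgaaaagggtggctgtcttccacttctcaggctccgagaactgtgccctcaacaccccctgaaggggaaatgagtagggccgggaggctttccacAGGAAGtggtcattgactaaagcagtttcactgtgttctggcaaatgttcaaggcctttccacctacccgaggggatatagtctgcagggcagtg
Gimap7 promoter, chr6:48718371-48718670, plus strand: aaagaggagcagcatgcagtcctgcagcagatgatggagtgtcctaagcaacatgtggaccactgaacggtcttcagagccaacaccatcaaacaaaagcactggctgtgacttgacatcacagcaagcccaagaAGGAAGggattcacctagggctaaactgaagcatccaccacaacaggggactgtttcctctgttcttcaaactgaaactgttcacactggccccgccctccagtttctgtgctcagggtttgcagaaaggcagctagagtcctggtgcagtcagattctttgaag

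RefSeq gave 9 promoters for the 8 members, since Gimap8 has a pair of overlapping windows. AGGAAG stood in the promoters of 7 of the 8 members, against 35.4% of all 32851 mouse promoters. It occurred 2 times each in Gimap9, Gimap1 and Gimap4, 1 time each in Gimap5, Gimap7, Gimap3 and a single window of Gimap8, and not in Gimap6. It was thus found among members that rose, that fell and that were not called. Of the other motifs searched on both strands, TGTGGT (RUNX factors) occurred in Gimap4, Gimap7 and Gimap1, against 16.8% of promoters. GTAAACA (forkhead factors) occurred only in Gimap3 and TATAAA only in Gimap6, against 3.65% and 13.6% of promoters. The interferon response element occurred in none, against 3.44%. None of these motifs contains another. CpG dinucleotides were few: Gimap9 had 8 and the other promoters had 2 to 4, with a median of 7 over all promoters. A match describes these letters only and was not tested as a binding site.

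Levels are given as CPM, counts scaled to the library size after TMM correction. A gene was called when the Benjamini-Hochberg adjusted p of edgeR's quasi-likelihood test was below 0.05 over all tested genes and the fold change was above 1.2. By this rule 37.1% of all tested genes were called higher and 41.1% lower in KO, and the members' 3 and 3 of 8 are to be read against these shares. Among the 1776 tested genes whose mean level lay between those of the lowest and the highest member (6.21 to 9.36 log2 CPM, a range set after the levels were seen), 41.3% were called higher, 31.0% lower and 72.4% in either direction. The share of members called is thus near the background in both directions.

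Gimap9 had the largest change of the family, ahead of Gimap1. It was at 132 and 129 CPM in WT and at 261 and 251 CPM in KO. It rose by 0.97 ± 0.08 on the log2 scale (SE), with an adjusted p of 9.87e-15.

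Gimap1, which is needed for the survival of mature T and B cells, rose almost as much. It was at 157 and 145 CPM in WT and at 278 and 286 CPM in KO. The change was 0.90 ± 0.08 on the log2 scale, with an adjusted p of 9.36e-14. When a trend of the changes with exon length and GC content was removed, the change of Gimap1 was 1.46 and that of Gimap9 was 0.90, so that their order turned.

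Gimap8, the member with the longest coding sequence, was also the least abundant one per length in both genotypes. It was at 56.0 and 56.2 CPM in WT and at 94.5 and 88.1 CPM in KO. It rose by 0.70 ± 0.10 on the log2 scale, with an adjusted p of 2.39e-08. In all 3 of these genes both KO libraries lay above both WT libraries, as the plot of CPM by library shows.

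**Figure D1:**
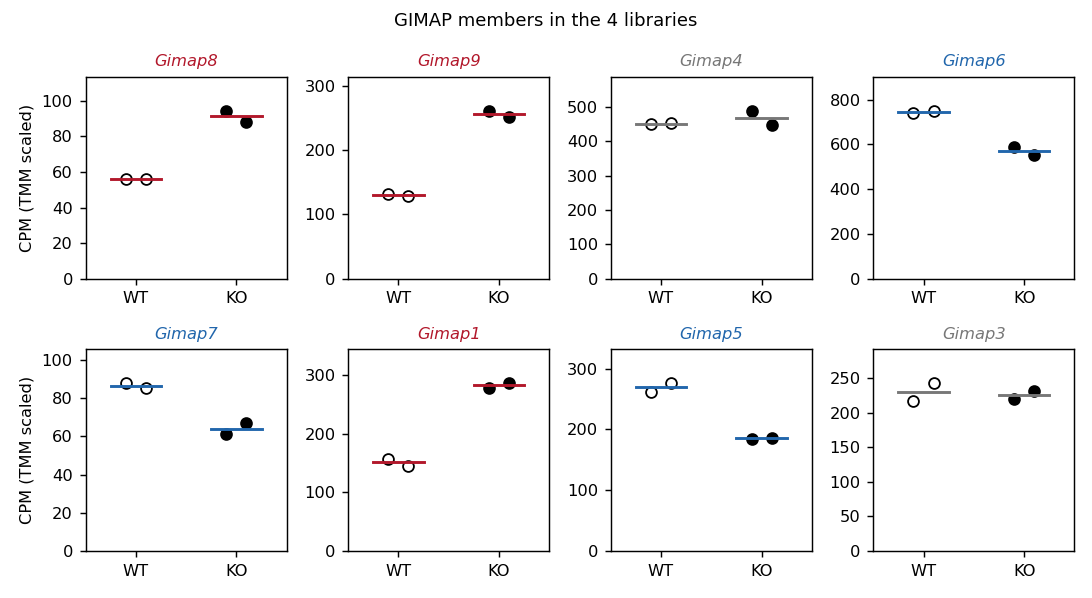
Level of each GIMAP member (CPM after TMM scaling, vertical axis from 0) in the 2 WT libraries (open circles) and the 2 KO libraries (filled circles). Bars mark the genotype means, in red for members called higher in KO, in blue for members called lower and in grey for members not called. The circles of the genotypes overlap only in Gimap3 and Gimap4.

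Gimap5, whose loss causes lymphopenia in rats and mice, had the largest decrease. It was at 262 and 276 CPM in WT and at 184 and 186 CPM in KO. It fell by 0.54 ± 0.08 on the log2 scale, with an adjusted p of 5.92e-08.

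Gimap7, a GTPase that becomes active when it pairs with itself, was at 87.9 and 85.2 CPM in WT. It was at 61.4 and 66.7 CPM in KO. It fell by 0.43 ± 0.10 on the log2 scale, with an adjusted p of 0.000132.

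Gimap6, which takes part in autophagy and binds the autophagy protein GABARAPL2, was the member with the most counts in every library. It was at 742 and 750.2 CPM in WT and at 587 and 551 CPM in KO. It fell by 0.39 ± 0.08 on the log2 scale, with an adjusted p of 9.72e-06. In all 3 lower members the genotypes did not overlap. Removing the trend with exon length and GC content left the change of Gimap6 at -0.22 and that of Gimap7 at -0.17, neither of them called. Gimap5 remained called at -0.38.

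Gimap4, which has been linked to T cell death, was at 451 and 452 CPM in WT and at 489 and 446 CPM in KO. The difference was 0.05 on the log2 scale, with a 95% interval of -0.11 to 0.21 and an adjusted p of 0.555. Gimap3, the close copy of Gimap5, was at 218 and 243 CPM in WT and at 219 and 232 CPM in KO. The difference was -0.03, with a 95% interval of -0.20 to 0.13 and an adjusted p of 0.734. Both intervals lie within the fold change of 1.2 that a call requires. With the trend of exon length and GC content removed, Gimap3 was at 0.41 and was called higher, while Gimap4 was at 0.0046.

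The genotypes did not overlap in 6 of the 8 members, and in 88.1% of all tested genes. The median change of the members was 0.01 on the log2 scale, against -0.10 for all tested genes and 0.10 for the 1776 genes of like level. The median size of the change, whatever its direction, was 0.49 for the members, 1.16 for all tested genes and 0.47 for those of like level. Of the genes of like level, 20.8% changed at least as much as Gimap9 in either direction, and 44.8% at least as much as Gimap5.

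**Figure D2:**
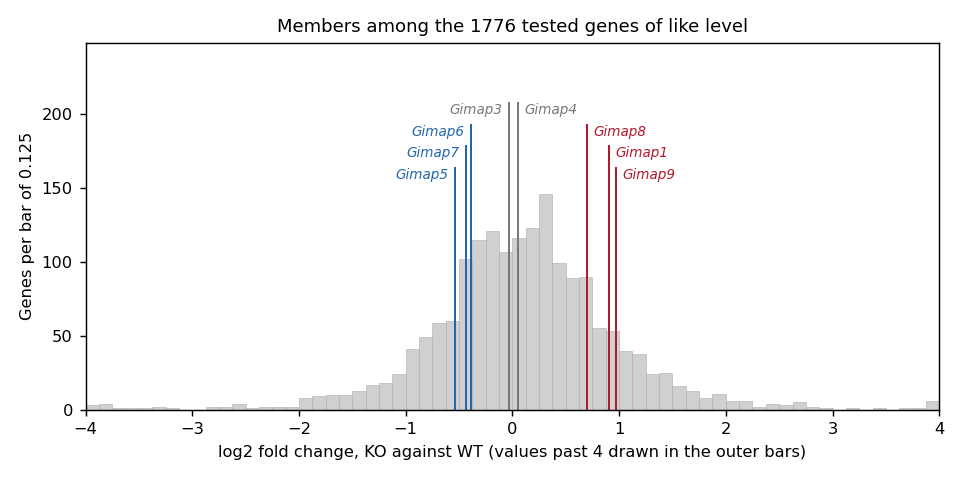
Histogram of the log2 fold change (horizontal axis, KO against WT) of the 1776 tested genes within the range of level of the members, with the number of genes per bar on the vertical axis. Vertical lines mark the 8 members, in red where called higher, in blue where called lower and in grey where not called; all lie within the main body of the histogram, between -0.54 for Gimap5 and 0.97 for Gimap9.

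The summed level of the 8 members was 2105 and 2137 CPM in WT and 2174 and 2107 CPM in KO. The genotypes overlapped in this sum, and its mean was 2121 ± 22.1 CPM (SD, n = 2) and 2141 ± 47.6 CPM (SD, n = 2). With 2 libraries against 2, an exact permutation test cannot reach 0.05, so that none was made. What differed was the make-up of the family. Gimap9, Gimap1 and Gimap8 together held 16.4% and 15.5% of the family's counts in WT and 29.2% and 29.7% in KO. Gimap6, Gimap5 and Gimap7 held 51.9% and 52.0% in WT and 38.3% and 38.2% in KO. Since these sets were formed by their calls, the shares are a description.

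**Figure D3:**
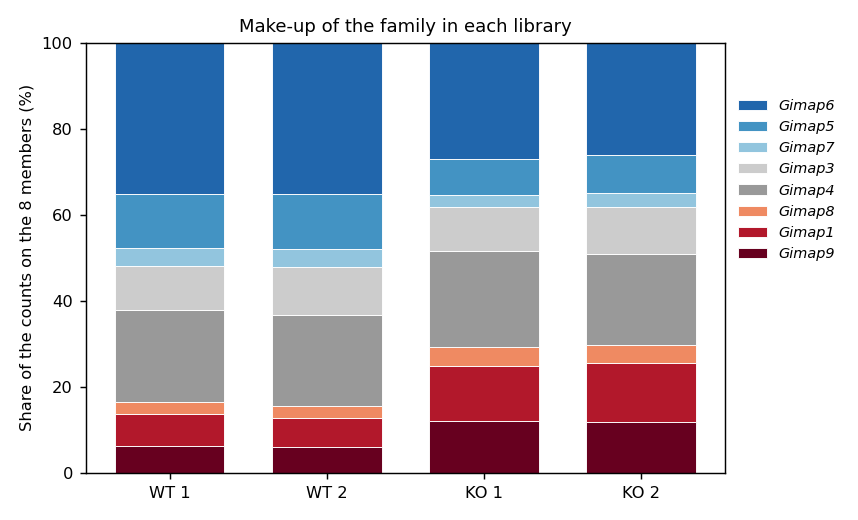
Share of the counts on the 8 GIMAP members that fell on each member (stacked bars, percent) in each of the 4 libraries. The red parts (Gimap9, Gimap1 and Gimap8, from the bottom) take 15.5% to 16.4% in the WT libraries and 29.2% to 29.7% in the KO libraries, and the blue parts at the top (Gimap7, Gimap5 and Gimap6) shrink.

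Ratios of counts within a library do not depend on its scaling. The ratio of Gimap1 to Gimap5, which lie 2401 bp apart on the same strand, was 0.598 and 0.526 in WT and 1.51 and 1.53 in KO. Gimap5 thus had more counts than Gimap1 in both WT libraries and fewer in both KO libraries. The ratio of Gimap9 to Gimap6 was 0.178 and 0.172 in WT and 0.445 and 0.455 in KO. The ratio of the close copies Gimap3 and Gimap5 was 0.830 and 0.880 in WT and 1.19 and 1.24 in KO, so that they did not change in step. These pairs were chosen for their different calls, so that the shifts are a description. Among pairs called in the same direction, Gimap1 to Gimap9 was 1.19 and 1.13 in WT and 1.06 and 1.14 in KO, with overlap between the genotypes. Gimap5 to Gimap6 was 0.353 and 0.368 in WT and 0.313 and 0.338 in KO, without overlap. Gimap8 to Gimap9 was 0.424 and 0.436 in WT and 0.362 and 0.351 in KO, also without overlap.

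Compared per length, as reads scaled by exon length and library size (RPKM), Gimap4 was the most abundant member in both genotypes, with means of 246 in WT and 254 in KO. Its level lay above that of 97.2% of the 9282 tested protein-coding genes in WT. In WT it was followed by Gimap6 (213 RPKM), Gimap3 (89.4), Gimap9 (79.5), Gimap5 (64.9), Gimap1 (49.1), Gimap7 (37.2) and Gimap8 (15.2). The libraries of each pair of neighbours in this order did not overlap. In KO the order after Gimap4 was Gimap6 (163 RPKM), Gimap9 (156.0), Gimap1 (91.8), Gimap3 (87.5), Gimap5 (44.6), Gimap7 (27.6) and Gimap8 (24.7). Gimap6 and Gimap9 were not separated there, with 158 RPKM in the lower library of Gimap6 and 159 in the higher library of Gimap9. Gimap1 and Gimap3 were separated only narrowly, with 90.4 RPKM in the lower library of Gimap1 and 89.9 in the higher library of Gimap3. So were Gimap7 and Gimap8, with 26.4 RPKM in the lower library of Gimap7 and 25.5 in the higher library of Gimap8. Gimap1 thus stood below Gimap5 and Gimap3 in WT and above both in KO, and Gimap9 stood below Gimap3 in WT and above it in KO. The rank of Gimap1 depends on the length used, since only 64.0% of its exon bases are shared with no other gene. With all its counts divided by the length of those bases alone, it was at 76.8 RPKM in WT and 143 in KO, values that are too high where reads on shared bases were counted.

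Along the cluster, higher and lower members were interleaved. Gimap8 and Gimap9, next to each other at the 5′ end, both rose. Gimap6 and Gimap7 in the middle both fell, although they are on opposite strands. Gimap1 rose and the adjacent Gimap5 fell. The plot of the change by place in the cluster shows this order.

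**Figure D4:**
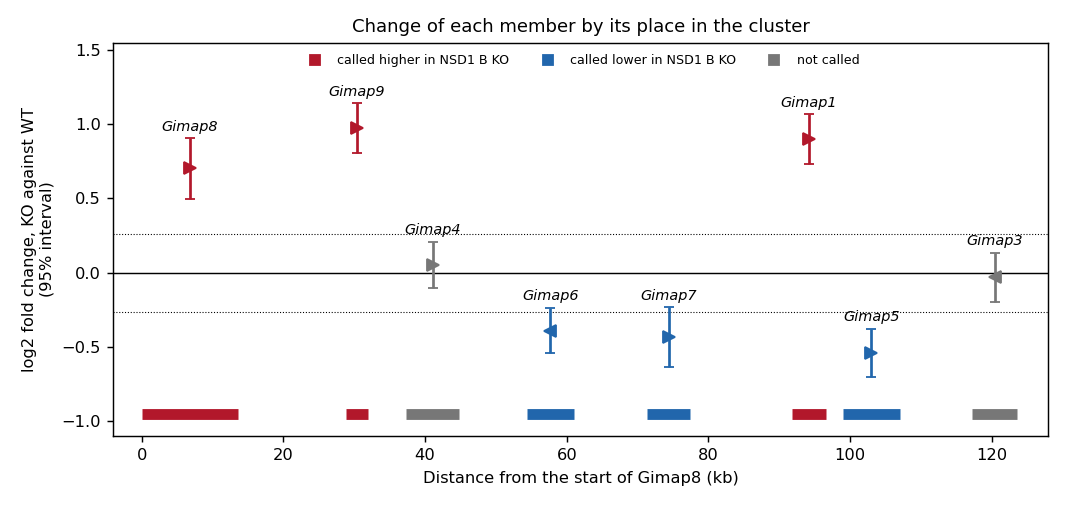
Log2 fold change of each GIMAP member (vertical axis, KO against WT, bars for the 95% interval) by distance from the start of Gimap8 in kb (horizontal axis). Triangles point right for the plus strand and left for the minus strand, blocks at the bottom span the genes, dotted lines mark the fold change of 1.2, and the interval runs from 0.73 to 1.07 for Gimap1 and from -0.70 to -0.38 for its neighbour Gimap5.

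A pair of further transcripts overlap exons of the members. Gimap1os, an antisense transcript that shares 1107 exon bases with Gimap1, had 693 and 727 counts in WT and 1082 and 980 in KO. It rose by 0.59 ± 0.09 on the log2 scale, with an adjusted p of 6.05e-08. The strand setting of the counting is not given in the sources used here, so that reads from Gimap1 and Gimap1os cannot be told apart with certainty. Gm28053, annotated as a protein-coding gene, spans from Gimap7 to Gimap5 and shares 81 exon bases with Gimap7, 198 with Gimap1 and 153 with Gimap5. It had 44 and 41 counts in WT and 0 in both KO libraries, which is at least 27.3-fold lower when 3 counts are allowed over the group. Its counts were few beside those of the members it overlaps.

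Within 300 kb of the cluster on either side, 13 genes other than the members had at least 10 counts in a library, the overlapping pair included, and 12 were tested. Of these, 6 were called higher, 5 lower and 1 was not called. Inside the cluster, the long noncoding RNAs 4833403J16Rik and Gm44226 had 0 counts in WT. They had 79 and 59 counts and 43 and 33 counts in KO, at least 47.8-fold and 26.3-fold higher. Past Gimap3, the membrane protein genes Tmem176b and Tmem176a were both higher in KO. Tmem176b had 114 and 116 counts in WT and 319 and 297 in KO (log2 change 1.47). Tmem176a had 18 and 46 counts in WT and 155 and 167 in KO (log2 change 2.38).

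Before Gimap8, 4 genes were lower. Zfp467, a zinc finger gene, had 52 and 59 counts in WT and 0 in KO, at least 35.6-fold lower. Zfp862-ps fell by 3.25, Lrrc61 by 0.92 and Gm10243 by 0.64 on the log2 scale. The miRNA gene Gm24325 had 0 counts in WT and 47 and 28 in KO, at least 26.0-fold higher. Rarres2, which encodes the chemoattractant chemerin, was at -0.53 with an adjusted p of 0.0544 and was not called, and Gm7887 was not tested. The 11 of 12 tested neighbours called are to be read against the 78.2% called among all tested genes, and the 2 called past Gimap3 were both higher.

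Among related gene lists, the septins, the GTPases nearest to GIMAPs in fold, had 5 tested members. Of these 2 were higher and 0 were lower in KO at the threshold used for all genes: Septin11, at 97.3 and 134 CPM on average (log2 change 0.46), and Septin6, at 42.4 and 55.5 CPM (0.39). The median change of the 5 was 0.39. The other septins, Septin7, Septin9 and Septin1, were not called.

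Of 16 tested interferon-inducible GTPases, which act in defence against pathogens inside cells, 5 were higher and 9 were lower, and the median log2 change was -0.68. Gbp4 had 145 and 139 counts in WT and 0 in KO, at least 91.2-fold lower. Gbp8 and Gbp6 were also at 0 in KO, at least 48.8-fold and 23.4-fold lower. Tgtp1 had 235 counts over both WT libraries and 2 over both KO libraries, a ratio of 113 with a 95% counting interval of 31.0 to 939.9. Genes of these families have near-identical copies, and the reads assigned to each copy are uncertain.

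The list of known partners of Gimap6 and Gimap5 held ATG8 proteins, GSK3 kinases and members of the BCL2 family, which governs cell death. Of its 9 tested genes, 3 were higher and 3 were lower, with a median log2 change of -0.06. Bcl2l11, a promoter of cell death, had 6 and 7 counts in WT and 140 and 136 in KO (log2 change 4.44). Gsk3b, whose protein has been linked to Gimap5, fell by 1.87 on the log2 scale. Bak1, another promoter of cell death, fell by 1.94. Gsk3a was at 0 counts in KO and at least 20.2-fold lower. Gabarapl2, the partner of Gimap6, had 1063 and 1152 counts in WT and 1860 and 1673 in KO (log2 change 0.73), in the opposite direction to Gimap6.

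Of 21 tested genes of the autophagy core, 12 were higher and 5 were lower, with a median log2 change of 0.59. The largest changes were those of Atg101, Atg7, Atg14 and Ulk2, which act in starting autophagy or in lipidation of ATG8 proteins. Atg101, Atg7 and Atg14 had 0 counts in WT and were at least 73.0-fold, 34.3-fold and 21.5-fold higher in KO. Ulk2 had 29 and 41 counts in WT and 643 and 575 in KO (log2 change 4.17). These lists were chosen with earlier results of these data known. Their counts are to be read against the 37.1% of all tested genes called higher and the 41.1% called lower.

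Markers of other cell types also differed between the genotypes, and GIMAP genes are abundant in T cells. In bulk libraries, fewer cells of a type and less RNA per cell cannot be told apart. Of 12 tested T cell markers, 4 were higher and 7 lower. This and the marker counts that follow are to be read against the 37.1% of all tested genes called higher and the 41.1% called lower. The summed level of the T cell list was 951 to 959.9 CPM in WT and 179 to 186 CPM in KO. In WT most of this sum was Cd2, whose mean was 835 CPM in WT and 62.0 CPM in KO. The defining T cell genes Cd4, Cd8a, Cd6, Cd28 and Zap70 had 0 counts in every library, and Cd3e had 4 and 3 counts in WT and 1 in each KO library. Other genes of the T cell receptor complex were counted and were higher in KO: Cd3g had 125 and 119 counts in WT and 258 and 235 in KO, Cd3d had 63 and 53 against 115 and 99, and Cd247 had 95 and 92 against 158 and 135. Besides Cd2, the lower markers were Trac, Lat, Il7r, Lck, Tcf7 and Thy1. Lat had 121 and 82 counts in WT and 32 and 21 in KO. Il7r had 62 and 63 against 5 and 2, and Lck had 32 and 42 against 3 and 4. Tcf7 (34 and 30 counts in WT) and Thy1 (41 and 35 in WT) had 0 counts in both KO libraries. Transcripts of the receptor chains went in different directions. Trac had 183 and 214 counts in WT and 92 and 64 in KO and was lower, Trbc1 had 7 in each WT library and 131 and 108 in KO and was higher, and Trbc2, with 107 and 116 against 105 and 110, was not called.

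Of 8 B cell markers, all detected in every library, 1 was higher and 5 lower in KO. Among all tested genes, 78.2% were called in either direction. The summed level of the 8 markers was 12634 to 12853 CPM in WT and 11189 to 12180 CPM in KO. The largest part of this sum was Cd79b, with means of 6825 and 8159 CPM. Pax5, the factor that maintains B cell identity, fell from 42.9 to 4.39 CPM (log2 change -3.29) and Cd79a, a chain of the B cell receptor complex, from 1988 to 789 CPM (-1.33). Ebf1, the marker called higher, rose from 48.5 to 81.6 CPM (log2 change 0.75). Erythroid markers rose in all 5 tested genes, from 35.6 to 39.6 CPM in sum to 1690 to 1944 CPM. Of 9 tested myeloid markers, 7 were higher and 2 lower, and Mpo was at 0 in every library. Their sums were 4681 to 4791 CPM in WT and 5922 to 6286 CPM in KO. Most of the myeloid sum was Lyz2, with means of 4492 CPM in WT and 5717 CPM in KO (log2 change 0.35). The 2 lower markers were Itgam (log2 change -0.80) and S100a8, with 39 and 28 counts in WT and 0 in KO. S100a9 had 0 counts in WT and 13 in each KO library. Of 5 tested NK cell markers, 4 were higher and 1 lower, with sums of 56.5 to 59.9 CPM and 105 to 107 CPM and with Ncr1, Eomes and Gzma at 0. Of the endothelial markers only Pecam1 was counted, and it was not called. Of 2 tested markers of plasmacytoid dendritic cells, Bst2 was higher and Ly6d was not called, and Siglech, Klk1 and Cox6a2 were at 0 in every library. Many of these levels differed between the genotypes, as most GIMAP members did, and others did not. The part of these levels in the changes of the members was not tested.

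By Euclidean distance over the 4 libraries on the log2 CPM scale, centred on the mean, the genes most like the summed family among 3528 protein-coding candidates were Ly96, Thoc7, Slc44a2, Itfg1 and Ly6e. Their distances were 0.0136 to 0.0306, and their changes between the genotypes were 0.01 to 0.03 on the log2 scale.

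The direction and call of Gimap9, Gimap1, Gimap8 and Gimap5 were the same under every alternative scaling, filter, test and left-out library. The plot of the alternatives shows the range for each member.

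**Figure D5:**
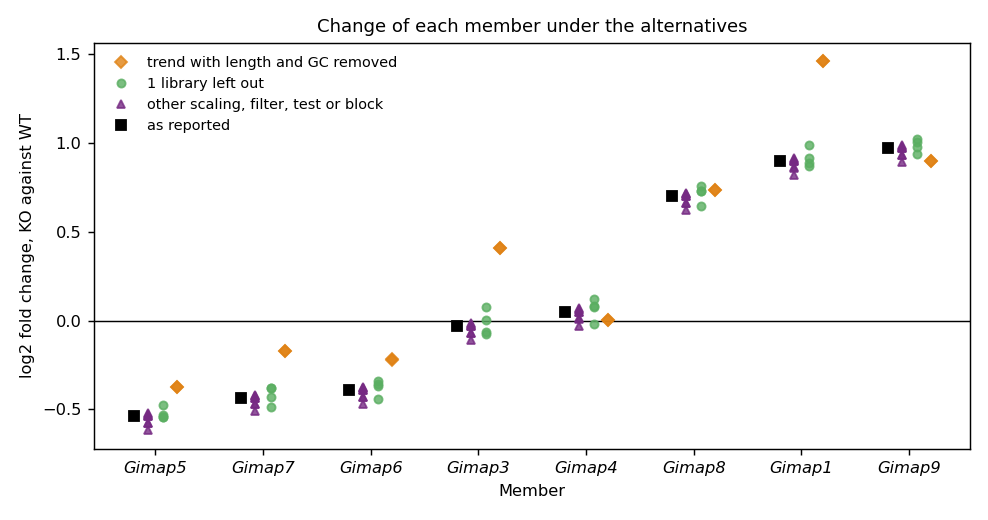
Log2 fold change of each GIMAP member (vertical axis, KO against WT), members in order of their change, as reported (black squares) and under other scalings, filters, tests or the block (purple triangles), with 1 library left out (green circles) and with the trend with exon length and GC content removed (orange diamonds). Gimap3 moves from -0.03 to 0.41 and Gimap1 from 0.90 to 1.46 when the trend is removed, and the members called higher stay above 0.62 throughout.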

How the data were processed

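RNA of sorted B220+ splenic B cells was sequenced in 2 NSD1 B WT and 2 NSD1 B KO libraries, grouped by their labels. The deposited values are raw counts, 1 whole number for each gene and library, made by the authors. Their Methods describe paired-end reads aligned to mm10 by Bowtie2. FPKM values that they computed with Cufflinks were not analysed here. How reads were counted (program, strand setting, annotation) is not given in the sources used here. Reads on no gene made up 44.3% to 44.6% of each library and were left out, as were ambiguous reads (2.21% to 2.41%) and reads that were not unique (11.2% to 13.2%).

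Counts were scaled by TMM (factors 0.952 to 1.03) and tested with the quasi-likelihood test of edgeR 4.0.16 in R 4.3.3 on genes kept by filterByExpr (minimum count 10, minimum total 15), with Benjamini-Hochberg adjustment over all 11657 tested genes. Calls needed an adjusted p under 0.05 and a fold above 1.2. The study's Methods give these limits without naming an adjustment, which was added here. The common dispersion was 0.0054. In simulated data with 200 of 11657 genes changed by 1 on the log2 scale, 78% were recovered, and 100% of those with at least 5 log2 CPM. The simulation gave all genes the common dispersion and changed few of them, with rises and falls balanced. In the data 78.2% of the tested genes were called, so these rates need not hold there. Where both libraries of a genotype had 0 counts, a floor of 3 counts for the pair was used in fold changes, and it covers counting error only. GENCODE M21, matched by 99.5% of the identifiers, supplied gene positions, exons and coding sequences. Promoters came from RefSeq (GRCm38.p6).

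The members and gene lists were chosen with earlier results of these data known. Named genes were all members, overlapping transcripts and neighbours within 300 kb with at least 10 counts. Also named were up to 4 called genes per list by size of change and the 5 genes most like the summed family. Gabarapl2 and the septins not called were named after their values were seen. So were the markers Cd2, Cd3d, Cd3e, Cd3g, Cd247, Il7r, Lat, Lck, Tcf7, Thy1, Trac, Trbc1, Trbc2, Cd79a, Cd79b, Ebf1 and Pax5. The markers Itgam, Lyz2, S100a8, S100a9, Pecam1, Bst2 and Ly6d were named in the same way. Alternatives were other scalings (size factors of DESeq2, library size alone, upper quartile), filters, tests (DESeq2 1.42.0, limma-voom in limma 3.58.1) and thresholds, each library left out, the replicate number as a block, and removal of a loess trend with exon length and GC content. RPKM over exon bases shared with no other gene was added after the overlaps were seen.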

Additional observations from a re-analysis of the deposited data

How the results depend on the processing

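Gimap9, Gimap1, Gimap8 and Gimap5 kept their direction and call under all 16 alternatives, and Gimap6 and Gimap7 under 13 of 16. The members called lower were 1 (Gimap5) in place of 3 at an adjusted p below 1e-05 with an absolute log2 change above 0.5. They were also 1 with the trend with exon length and GC content removed, and 1 with that trend removed together with the replicate block. Removing the trend raised the members called higher to 4, with Gimap3 at 0.41 (0.41 with the block too), and moved the median of all tested genes from -0.10 to 0.15. Relative to that median, Gimap6 was at -0.29 before and -0.37 after, Gimap7 at -0.33 and -0.32, and Gimap3 at 0.07 and 0.26. Gimap4 was at -0.029 with library size alone, and over the left-out libraries Gimap4 ranged from -0.021 to 0.12 and Gimap3 from -0.077 to 0.075, neither of them called. The log2 ratio of the summed family was 0.01, and -0.065 with library size alone and -0.024 with upper quartile scaling. Over all genes, a filter of 1 CPM in all 4 libraries gave 2855 higher and 2991 lower calls in place of 4324 and 4795. RPKM over the longest transcript put Gimap5 above Gimap3 in NSD1 B WT (116 against 107) and Gimap9 above Gimap6 in NSD1 B KO (185 against 179). Same-numbered libraries did not deviate together (correlation 0.08). With 1 deviation per genotype, this value cannot decide whether the samples were paired. The replicate block alone left the members called at 3 higher and 3 lower. The cause of these shifts was not tested.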
